A study of Mus musculus with 9 samples.

Results

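The genes of mitosis and of the G2 to M transition were followed in B16, a melanoma line of the mouse, cultured on flexible PDMS film. The set was chosen by name and holds 53 genes of the 22972 gene names in the files, and all 53 were found. A total of 9 libraries were sequenced from wild-type B16 cells at day 3, with 3 libraries in each of 3 groups. The CTL group was the control, and the MS group was strained cyclically by stretching of the film for 72 h. The group called Blebb here was given blebbistatin, an inhibitor of non-muscle myosin II, at 100 ng/mL for 72 h. The sample labels of the Blebb group name blebbistatin and no straining, whereas the study's text describes the inhibitor as given to strained cells, so Blebb against MS is read here as labelled and the straining of that group is not settled. All groups shared the film, the medium with fetal bovine serum and the cell line, and only 1 cell line was sequenced. The labels number parallel experiments and do not say whether these were separate cultures, so that the p-values measure only the spread between these libraries, which may be technical.

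A cell enters mitosis when the kinase CDK1, bound to cyclin A or cyclin B, is switched on by CDC25 phosphatases and Polo-like kinase. The kinetochores then bind spindle microtubules, and the spindle checkpoint holds back the anaphase-promoting complex until all chromosomes are attached. Kinesin motors and the chromosomal passenger complex order the spindle, and the contractile ring, which is driven by non-muscle myosin II, divides the cell. Most of these genes are transcribed late in the cell cycle, so that their mRNA is used as a sign of how many cells of a culture are dividing. In bulk RNA, fewer dividing cells and less of an mRNA in each dividing cell cannot be told apart.

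The values were FPKM (fragments on a gene, relative to its length and to the total mapped), so that levels can be set side by side between genes. The columns summed to 439939 to 484093 FPKM, and 9529 to 10388 genes reached 1 FPKM in a library. The depth is unknown. The pigment cell identity of the line was checked first. The melanocyte markers Pmel, Tyrp1, Dct, Mlana, Tyr, Sox10 and Mitf summed to 7444 to 12933 FPKM, whereas 6 fibroblast markers summed to at most 0.567 FPKM, 6 macrophage markers to at most 4.32 FPKM and 6 keratinocyte markers to at most 0.0314 FPKM. CTL 1 and Blebb 2 (the number is the parallel experiment) stood apart from the other libraries. On the first principal component over the genes outside the lists, which held 69.2% of the variance, they scored -40.4 and -41.9, while the other 7 libraries lay between -8.85 and 34.6. All 9 libraries were kept, and values without these 2 are given beside the results that rest on them.

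No mitotic gene passed the test between any of the groups. Of the 53 genes, 50 averaged 1 FPKM or more and were tested on the log2(FPKM + 1) scale with limma and Benjamini-Hochberg adjustment over 10109 genes. In MS against CTL, 0 of 50 had an adjusted p under 0.05 (0% of all genes tested) and 0 an unadjusted p under 0.05 (0.158% of all genes). Blebb against MS gave 0 and 0 as well (0% and 1.25% of all genes), as did Blebb against CTL (0% and 0.089% of all genes). The genes differed between single libraries instead. CTL 1 and Blebb 2 were the 2 lowest libraries for 49 of the 53 genes, and CTL 1, Blebb 2 and MS 3 were the 3 lowest for 43 of the 53. Blebb 2 was the lowest library for 41 genes and MS 1 the highest for 33. The share of all genes tested with the same lowest or highest libraries was not counted. Genes outside the lists set CTL 1 and Blebb 2 apart as well. The median deviation from the gene means (log2 scale) was -0.81 in CTL 1 and -0.93 in Blebb 2 for the 50 tested genes. Over all genes tested it was -0.076 and -0.043. The summed FPKM of the 53 genes ran from 909.8 in Blebb 2 to 2111 in MS 1, which is 0.188% to 0.456% of all FPKM.

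**Figure D1:**
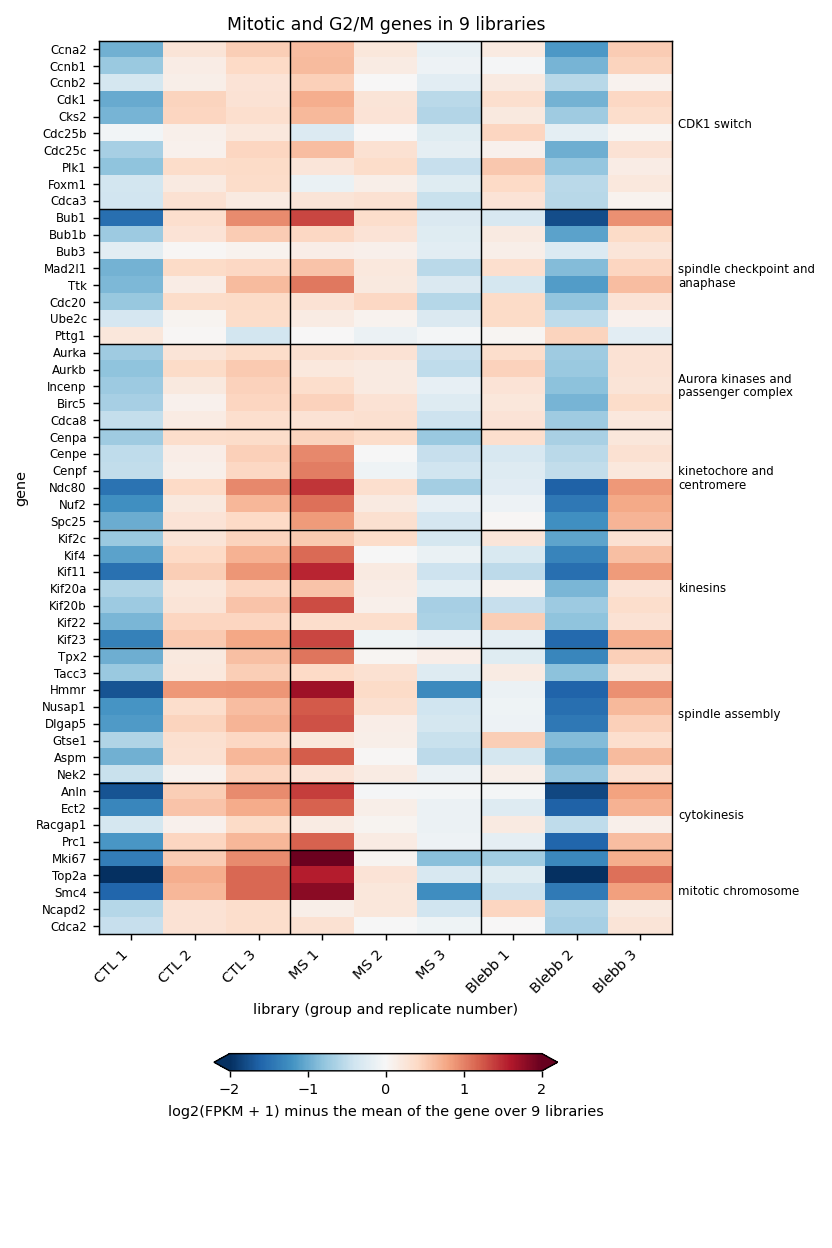
Heat map of the 53 mitotic and G2/M genes (rows, ordered by role) in 9 libraries (columns, 3 for each of CTL, MS and Blebb). Color gives log2(FPKM + 1) minus the mean of the gene over the 9 libraries, from blue (lower) to red (higher). CTL 1 and Blebb 2 are blue in nearly all rows and MS 1 holds the darkest red, whereas no block of 3 columns has a color of its own.

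The genes went up and down together across the libraries. Over the 1225 pairs of the 50 genes, the median Pearson r across 9 libraries was 0.914, and 685 pairs were above 0.9. Of the 50 pairs below 0, 49 held Pttg1. Without CTL 1 and Blebb 2 the median r over 7 libraries was 0.756. The r was not computed for pairs of other genes. The first principal component over the genes outside the lists held 69.2% of their variance. A high r between pairs is therefore not shown to be particular to the mitotic genes. The groups accounted for a median of 7.11% of the variance of a gene, against 12.7% over all genes tested, and Cdc25b alone was over 25%, at 31.5%. With 3 groups of 3 independent libraries, a share of 25% is the average when the groups do not differ. The points of these correlations share libraries, and no test was made on them.

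The promoters of the mitotic genes were read for letters that cell cycle genes are known to share. The motifs searched on both strands were TTTGAA and TTTAAA (the cell cycle genes homology region, which MuvB complexes bind) and CCAAT (bound by NF-Y), in the RefSeq promoter table of GRCm38.p6 from 250 bases before to 50 bases after the start. The table held 47 promoters of 43 of the 53 genes. TTTGAA was in 70.2% of the 47 promoters against 17.9% of all 32851 promoters of the same length. TTTGAA or TTTAAA was in 80.9% against 27.6%, and CCAAT in 78.7% against 37.4%. A homology motif and a CCAAT occurred together in 70.2% of the promoters of the mitotic genes and in 10.7% of all promoters. Of the TTTGAA matches, 31 of 42 (73.8%) began within 50 bases of the start, against 25.3% of the matches in all promoters. For comparison, 23.7% of the promoters of 33 S phase genes and 11.8% of those of 14 subunits of the anaphase-promoting complex held TTTGAA or TTTAAA. So did 23.1% of the promoters of 11 genes of cohesin, the ring that holds sister chromatids together. CCAAT was in 52.6% of the S phase promoters, 41.2% of the anaphase-promoting complex promoters and 61.5% of the cohesin promoters. The S phase and cohesin lists had their lowest median deviations in the same libraries as the mitotic genes. The part of the motifs in this pattern was not tested. The mitotic promoters had a median GC content of 59%, against 52.7% for all.

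The 4 promoters shown belong to genes that lead their role by mean FPKM and hold a match. They are Ube2c (chr2:164769679-164769928, plus strand), Cdca3 (chr6:124829926-124830175, plus strand), Ncapd2 (chr6:125191587-125191836, minus strand) and Birc5 (chr11:117848987-117849236, plus strand), all in GRCm38.p6. The 250 bases before each start are shown 5′ to 3′, and capitals mark matches of the 3 motifs on either strand (TTCAAA for TTTGAA and ATTGG for CCAAT on the other strand).
Ube2c: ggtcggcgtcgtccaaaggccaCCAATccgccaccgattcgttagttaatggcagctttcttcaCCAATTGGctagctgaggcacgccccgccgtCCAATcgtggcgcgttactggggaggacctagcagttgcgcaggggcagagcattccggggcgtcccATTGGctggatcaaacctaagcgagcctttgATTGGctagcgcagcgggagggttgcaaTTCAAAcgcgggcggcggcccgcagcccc
Cdca3: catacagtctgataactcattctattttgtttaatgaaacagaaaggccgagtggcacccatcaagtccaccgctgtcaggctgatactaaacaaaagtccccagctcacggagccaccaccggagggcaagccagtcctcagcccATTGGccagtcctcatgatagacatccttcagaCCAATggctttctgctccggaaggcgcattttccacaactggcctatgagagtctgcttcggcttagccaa
Ncapd2: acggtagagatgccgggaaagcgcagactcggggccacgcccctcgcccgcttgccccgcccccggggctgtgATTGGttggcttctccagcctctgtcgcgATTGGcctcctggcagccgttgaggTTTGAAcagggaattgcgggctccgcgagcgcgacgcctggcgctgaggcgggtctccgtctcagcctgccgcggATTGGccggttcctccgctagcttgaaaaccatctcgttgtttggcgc
Birc5: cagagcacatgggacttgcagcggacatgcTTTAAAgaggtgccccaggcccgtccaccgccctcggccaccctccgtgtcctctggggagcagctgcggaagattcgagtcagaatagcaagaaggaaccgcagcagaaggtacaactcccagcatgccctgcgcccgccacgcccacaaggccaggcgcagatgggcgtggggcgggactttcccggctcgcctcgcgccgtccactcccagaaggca
Counted from the start, Ube2c held TTCAAA from base -29 and 6 matches of CCAAT on either strand, of which 2 overlap in the run CCAATTGG. In Ncapd2 the TTTGAA began at base -123. The TTTGAA of Cdca3 began at base 31, after the start and outside the stretch shown, and a CCAAT that runs across its start is not marked. Birc5 held TTTAAA from base -220 and no CCAAT in this window. A match is a description of the letters and not a binding site. The 9 genes without TTTGAA or TTTAAA in this window were Bub1, Cdc25b, Cks2, Mad2l1, Nek2, Nuf2, Nusap1, Pttg1 and Tacc3. Aurkb, Ccna2, Cdc25c, Cdca2, Dlgap5, Foxm1, Incenp, Kif20a, Smc4 and Tpx2 had no entry in the table. Between the highest and the lowest library, the 31 tested genes with a match spanned a median of 1.57 on the log2 scale and the 9 without spanned 1.51.

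The CDK1 switch was expressed in every library. Its 10 genes (Ccna2, Ccnb1, Ccnb2, Cdk1, Cks2, Cdc25b, Cdc25c, Plk1, Foxm1 and Cdca3) had means over 9 libraries from 5.60 FPKM (Cdc25c) to 89.3 FPKM (Cdca3). Cdca3, whose product triggers the destruction of the CDK1 inhibitory kinase WEE1, was at 66.5, 108 and 99.0 FPKM in CTL, 104, 108 and 63.3 FPKM in MS and 105, 59.2 and 91.3 FPKM in Blebb. The group means were 91.0 ± 21.7, 91.5 ± 24.5 and 85.2 ± 23.5 FPKM (SD, n = 3), with 1 low library in each group. Its log2 fold change in MS against CTL was -0.0012 (SE 0.28, 95% interval -0.65 to 0.64). Cdk1 itself lay between 17.1 and 59.0 FPKM, and its partners Ccnb1 (cyclin B1) and Ccna2 (cyclin A2) between 24.6 and 74.7 FPKM and between 14.7 and 52.4 FPKM. All 3 were lowest in CTL 1 or Blebb 2 and highest in MS 1. The second cyclin B gene, Ccnb2, and Cks2, a small subunit bound to CDK1, lay between 33.4 and 69.1 FPKM and between 28.2 and 85.9 FPKM, and Cdc25c, another CDC25 phosphatase, between 2.19 and 8.64 FPKM. Plk1, the Polo-like kinase, lay between 39.5 and 102 FPKM and was highest in Blebb 1.

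Cdc25b and Foxm1 had the lowest fold changes of the set in MS against CTL. Cdc25b, a phosphatase that turns on CDK1 at the centrosomes, was at 35.5, 39.6 and 43.1 FPKM in CTL, 30.5, 37.3 and 31.0 FPKM in MS and 50.3, 32.2 and 38.1 FPKM in Blebb. MS 2 lay above CTL 1 and Blebb 2 lay among the MS libraries, so that the groups overlapped. Its log2 fold change was -0.25 (SE 0.17, 95% interval -0.65 to 0.14) in MS against CTL and 0.26 (SE 0.17, 95% interval -0.13 to 0.65) in Blebb against MS, the smallest unadjusted p of the 50 genes in both (0.179 and 0.166, limma). Foxm1, the transcription factor that works with the MuvB complex on late cell cycle genes, was at 36.2, 53.8 and 61.4 FPKM in CTL, 43.2, 51.3 and 39.8 FPKM in MS and 62.9, 32.1 and 54.6 FPKM in Blebb. In MS against CTL its log2 fold change, -0.14 (SE 0.27, 95% interval -0.75 to 0.47), was above only that of Cdc25b. Of the 10 genes of the switch, 7 had a fitted log2 fold change above 0 in MS against CTL, 2 in Blebb against MS and 3 in Blebb against CTL, and 0 passed the test in either direction. Over all genes tested, 49.5%, 49% and 46% lay above 0 in these comparisons. When CTL 1 was left out, 0 of the 10 lay above 0 in MS against CTL.

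The spindle checkpoint and anaphase genes held both the steadiest and some of the most variable transcripts. Bub3, which carries BUB1 and BUBR1 to the kinetochore, was at 80.7, 95.9 and 98.2 FPKM in CTL, 103, 101 and 81.0 FPKM in MS and 102, 77.3 and 111 FPKM in Blebb. It varied least of the 50 genes, by 1.44-fold between its highest and lowest library, and was the only one whose span did not exceed the median of all genes tested. Bub1, the checkpoint kinase (chr2:127801122-127831865 in GENCODE M21, GRCm38), was at 1.47, 7.83 and 12.5 FPKM in CTL, 16.7, 7.97 and 4.76 FPKM in MS and 4.60, 1.05 and 12.2 FPKM in Blebb. Its libraries differed by 15.8-fold, and the 3 libraries of CTL and of Blebb each reached from below the lowest MS library to above the middle one.

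Bub1b, which encodes BUBR1, was at 15.3, 31.6 and 37.3 FPKM in CTL, 34.8, 31.6 and 21.7 FPKM in MS and 29.6, 11.9 and 34.1 FPKM in Blebb. Mad2l1, whose product MAD2 binds and holds CDC20, was at 13.0, 34.1 and 34.6 FPKM in CTL, 38.9, 30.0 and 17.6 FPKM in MS and 32.7, 13.7 and 35.3 FPKM in Blebb. Cdc20, the activator of the anaphase-promoting complex, was at 36.8, 81.7 and 82.1 FPKM in CTL, 77.5, 84.7 and 42.2 FPKM in MS and 82.7, 35.9 and 76.1 FPKM in Blebb. In all 3 genes the first CTL library, the third MS library and the second Blebb library were the lowest of their group, and the groups overlapped. Ttk, the MPS1 kinase that starts the checkpoint signal, was low, at 0.375, 1.83 and 2.95 FPKM in CTL, 4.30, 1.93 and 1.09 FPKM in MS and 1.01, 0.172 and 2.94 FPKM in Blebb.

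Ube2c, the ubiquitin-conjugating enzyme of the anaphase-promoting complex, had the highest mean of the 53 genes, 102 FPKM. It was at 78.8, 104 and 129.7 FPKM in CTL, 112, 105 and 82.0 FPKM in MS and 131, 70.3 and 107 FPKM in Blebb, and its log2 fold change in MS against CTL was -0.043 (SE 0.26, 95% interval -0.62 to 0.54). Pttg1, or securin, which blocks separase until anaphase, went the other way across the libraries, at 28.4, 24.5 and 18.4 FPKM in CTL, 24.1, 22.1 and 23.4 FPKM in MS and 24.9, 33.1 and 20.7 FPKM in Blebb. It was the only one of the 53 genes that was highest in Blebb 2 and lowest in CTL 3. The log2 fold changes of Pttg1 were 0.15 (SE 0.20, 95% interval -0.30 to 0.60) in Blebb against MS and 0.13 (SE 0.20, 95% interval -0.32 to 0.58) in Blebb against CTL. Of the 8 genes, 6 lay above 0 in MS against CTL, 3 in Blebb against MS and 3 in Blebb against CTL, and 0 passed the test. The shares above 0 over all genes tested were 49.5%, 49% and 46%. Only 1 of the 8 lay above 0 in MS against CTL when CTL 1 was left out.

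The Aurora kinases and the chromosomal passenger complex varied less than the other roles. Birc5, or survivin, which anchors the complex at the centromere, was at 43.3, 73.0 and 93.6 FPKM in CTL, 95.7, 84.1 and 57.3 FPKM in MS and 80.4, 35.9 and 88.9 FPKM in Blebb. Its MS libraries reached the highest value but overlapped CTL, with means of 79.0 ± 19.7 and 70.0 ± 25.3 FPKM (SD, n = 3) and a log2 fold change of 0.21 (SE 0.39, 95% interval -0.66 to 1.08). Aurka, the spindle pole kinase, lay between 32.7 and 70.2 FPKM and Aurkb, the kinase of the complex, between 25.7 and 66.5 FPKM. Incenp, the scaffold, and Cdca8, or borealin, lay between 14.3 and 36.4 FPKM and between 23.7 and 49.6 FPKM. The 5 genes spanned a median of 1.28 on the log2 scale, the least of the 8 roles. Of these 5, 4 lay above 0 in MS against CTL, 1 in Blebb against MS and 0 in Blebb against CTL, and 0 passed the test. The shares above 0 over all genes tested were 49.5%, 49% and 46%. When CTL 1 was left out, 0 of the 5 lay above 0 in MS against CTL.

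Among the kinetochore and centromere genes, Cenpa, the histone H3 variant that marks the centromere (chr5:30666777-30674830), was the most abundant. It was at 36.2, 76.4 and 77.3 FPKM in CTL, 81.4, 77.1 and 35.4 FPKM in MS and 75.2, 37.8 and 69.6 FPKM in Blebb, and MS 3 was its lowest library. The log2 fold change of Cenpa in MS against CTL was 0.018 (SE 0.41, 95% interval -0.92 to 0.95). The microtubule-binding NDC80 complex was read through Ndc80, Nuf2 and Spc25, which lay between 0.194 and 8.88, between 2.56 and 19.6 and between 6.80 and 32.0 FPKM. These 3 subunits of 1 complex differed in spread, by 45.9-fold, 7.64-fold and 4.71-fold between the highest and the lowest library. The ratio of Ndc80 is uncertain, as its lowest value, 0.194 FPKM, lies under 1 FPKM. Cenpe, a kinesin of the kinetochore, and Cenpf had means of 0.578 and 0.544 FPKM and were too low for the fit, with exact two-sided permutation p-values of 0.8 in MS against CTL, 0.6 in Blebb against MS and 0.6 in Blebb against CTL for both (n = 3 each). With 3 libraries against 3, no p under 0.1 can be reached. All 4 tested genes lay above 0 in MS against CTL and below 0 in the other comparisons, and 0 passed the test. Over all genes tested, 49.5% lay above 0 in MS against CTL, 49% in Blebb against MS and 46% in Blebb against CTL. When CTL 1 was left out, 0 of the 4 lay above 0 in MS against CTL.

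The kinesins covered a wide range of levels. Kif22, the chromokinesin that pushes chromosome arms outward (chr7:127027729-127042471), was the most abundant, at 15.9, 42.2 and 42.2 FPKM in CTL, 39.7, 39.9 and 19.7 FPKM in MS and 43.9, 17.4 and 38.2 FPKM in Blebb. Each group had 1 library far below the other 2, and the group means were 33.4 ± 15.2, 33.1 ± 11.6 and 33.2 ± 14.0 FPKM (SD, n = 3). The log2 fold change of Kif22 in MS against CTL was 0.042 (SE 0.47, 95% interval -1.01 to 1.10). Kif20a, which acts at the midzone, and Kif2c, which removes tubulin at wrongly attached kinetochores, lay between 13.6 and 40.1 FPKM and between 7.93 and 25.7 FPKM. The lower kinesins were more variable. Kif23, a subunit of centralspindlin, lay between 1.20 and 15.3 FPKM, Kif4, a chromokinesin, between 1.05 and 10.2 FPKM and Kif11, the motor that pushes the spindle poles apart, between 0.463 and 11.0 FPKM. Kif20b, at a mean of 0.871 FPKM, was too low for the fit and gave the same exact permutation p-values as Cenpe (n = 3 each). GENCODE M21 lists pseudogene copies of Kif4, Kif22, Ccnb1 and Ccnb2, and how the authors' counting split reads between copies is not given, so the levels of these 4 genes are uncertain. Of the 6 kinesins tested, 6 lay above 0 in MS against CTL, 0 in Blebb against MS and 1 in Blebb against CTL, and 0 passed the test. The shares above 0 over all genes tested were 49.5%, 49% and 46%. When CTL 1 was left out, 0 of the 6 lay above 0 in MS against CTL.

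The spindle assembly factors spread in the same way. Tacc3, which stabilizes the kinetochore fibers with clathrin (chr5:33658128-33678995), led them at 19.4, 38.9 and 47.3 FPKM in CTL, 44.1, 41.3 and 27.7 FPKM in MS and 37.4, 18.5 and 40.2 FPKM in Blebb. Its log2 fold change in MS against CTL was 0.16 (SE 0.38, 95% interval -0.70 to 1.01). Hmmr, which binds microtubules at the spindle pole, ran from 0.243 to 12.4 FPKM, a 51.1-fold range that starts from a value under 1 FPKM. Tpx2, the activator of Aurora A, lay between 6.02 and 35.5 FPKM and Nusap1, which bundles spindle microtubules, between 1.57 and 16.1 FPKM. Dlgap5, or HURP, of the kinetochore fibers and Aspm of the spindle poles lay between 1.14 and 13.0 FPKM and between 0.120 and 4.23 FPKM. Gtse1 and the centrosomal kinase Nek2 varied less, by 2.67-fold and 2.46-fold. Of the 8 genes, 7 lay above 0 in MS against CTL, 1 in Blebb against MS and 0 in Blebb against CTL, and 0 passed the test. The shares above 0 over all genes tested were 49.5%, 49% and 46%. Only 1 of the 8 lay above 0 in MS against CTL when CTL 1 was left out.

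Cytokinesis is the step in which myosin II, the target of blebbistatin, acts on the contractile ring. Racgap1, the other subunit of centralspindlin (chr15:99620496-99651656), was at 37.2, 50.8 and 62.8 FPKM in CTL, 53.5, 49.4 and 44.1 FPKM in MS and 54.2, 33.3 and 51.1 FPKM in Blebb. Its MS libraries lay within the range of CTL, and its log2 fold change was -0.0097 (SE 0.23, 95% interval -0.53 to 0.51). Anln, or anillin, the scaffold of the ring, ran from 2.47 to 31.0 FPKM. Ect2, which activates RhoA at the midzone, and Prc1, which bundles midzone microtubules, ran from 1.82 to 18.4 FPKM and from 4.64 to 37.2 FPKM. Anln, Ect2 and Prc1 were lowest in Blebb 2 and highest in MS 1. The median log2 fold change of the 4 genes was 0.41 for MS against CTL and -0.78 for Blebb against MS, the lowest median of the 8 roles in the latter comparison, and 0 passed the test. The median in MS against CTL was -0.24 without CTL 1, with 0 of the 4 genes above 0, and 0.021 without MS 1. Without Blebb 2 the median in Blebb against MS was -0.11, with 1 of the 4 genes above 0, and without MS 1 it was -0.35. It was -1.31 without Blebb 3. The smallest unadjusted p among them in Blebb against MS was 0.245 (limma).

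The genes of the mitotic chromosome included 3 of the 4 widest spans of the set. Top2a, topoisomerase II alpha, which untangles the sister chromatids (chr11:98992943-99024189), was at 4.23, 36.4 and 48.8 FPKM in CTL, 65.7, 26.1 and 17.0 FPKM in MS and 18.1, 4.07 and 47.6 FPKM in Blebb. Mki67, the proliferation marker Ki-67 that coats mitotic chromosomes, was at 0.107, 3.11 and 4.58 FPKM in CTL, 10.3, 2.01 and 0.608 FPKM in MS and 0.776, 0.174 and 3.77 FPKM in Blebb. Smc4, a core condensin subunit, was at 0.124, 4.30 and 6.45 FPKM in CTL, 10.7, 2.94 and 0.424 FPKM in MS and 1.50, 0.267 and 4.92 FPKM in Blebb. In each of these 3 genes the libraries of 1 group differed from each other by more than the group means did, and the groups overlapped. Mki67 differed by 96.5-fold and Smc4 by 86.4-fold between the highest and the lowest library, with the lowest values in CTL 1. These lowest values, 0.107 and 0.124 FPKM, lie under 1 FPKM at unknown depth, so the ratios are uncertain. On the log2(FPKM + 1) scale Top2a spanned 3.72, more than Smc4 (3.38) and Mki67 (3.35).

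Ncapd2, another condensin subunit, was far steadier than Smc4, which belongs to the same complex. It was at 55.5, 101 and 105 FPKM in CTL, 89.8, 96.5 and 62.2 FPKM in MS and 112, 53.5 and 94.5 FPKM in Blebb, a 2.09-fold range. The log2 fold change of Ncapd2 in MS against CTL was -0.042 (SE 0.33, 95% interval -0.78 to 0.70). Cdca2, a regulator of phosphatase PP1 on chromosomes, lay between 3.87 and 8.84 FPKM and had the smallest unadjusted p of the set in Blebb against CTL (0.518, limma). Of the 5 genes, 4 lay above 0 in MS against CTL, 1 in Blebb against MS and 0 in Blebb against CTL, and 0 passed the test. The shares above 0 over all genes tested were 49.5%, 49% and 46%. When CTL 1 was left out, 0 of the 5 lay above 0 in MS against CTL.

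**Figure D2:**
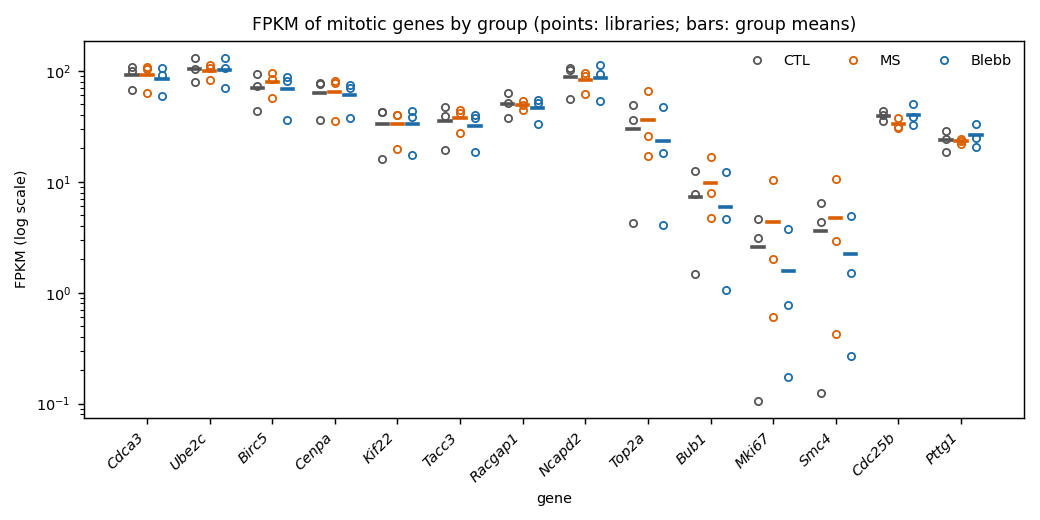
FPKM (log scale) of 14 mitotic genes in CTL, MS and Blebb. Circles are single libraries and bars are the means of 3 libraries. The first 8 genes lead their role by mean FPKM and differ by at most 2.76-fold (Kif22), while Top2a, Bub1, Mki67 and Smc4 range from 15.8-fold (Bub1) to 96.5-fold (Mki67) over the 9 libraries. All groups overlap in each gene.

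MS was set against CTL to ask whether these genes differed with straining. The 50 tested genes had a median log2 fold change of 0.18, and 41 lay above 0 against 49.5% of all genes tested. The highest values were 0.58 (SE 1.00, 95% interval -1.69 to 2.85) for Top2a and 0.55 (SE 0.79, 95% interval -1.23 to 2.32) for Bub1, and the lowest were those of Cdc25b and Foxm1. The 9 genes below 0 were Ube2c, Gtse1, Cdc25b, Racgap1, Pttg1, Cdca3, Aurkb, Ncapd2 and Foxm1. The standard errors of the 50 genes ran from 0.17 to 1.00 with a median of 0.43, and only Cdc25b differed from 0 by more than its own standard error. In 0 of the 50 genes were all MS libraries above all CTL libraries (0.524% of all genes) or below them (2.64%), and all adjusted p-values were 1.00 (limma). The direction rested on CTL 1 and MS 1. Without CTL 1 the median was -0.23 with 2 of 50 genes above 0, and without MS 1 it was -0.063 with 16 of 50 above 0. In the fit without CTL 1 and Blebb 2, 0 of the 50 genes had an unadjusted p under 0.05 (limma). Of all 10109 genes tested, 23 were higher and 37 lower in MS at that threshold. With MS 3, the third low library, left out as well, the median was 0.044 and 29 of 50 genes lay above 0.

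Blebb was also set against MS. As labelled, these groups differ in straining as well as in the inhibitor, and the parts of each cannot be told apart. If the Blebb cells were strained, as the study's text describes, only the inhibitor differs. The median log2 fold change was -0.30, and 8 of 50 genes lay above 0 against 49% of all genes tested. Top2a had -0.93 (SE 1.00, 95% interval -3.20 to 1.34) and Bub1 -0.86 (SE 0.79, 95% interval -2.64 to 0.91), the lowest values, while Cdc25b and Pttg1 had the highest. Leaving out 1 library gave -1.70 (without Blebb 3) to -0.067 (without Blebb 2) for Top2a and -1.52 (without Blebb 3) to -0.18 (without Blebb 2) for Bub1. The other genes above 0 were Bub3, Ube2c, Gtse1, Aurkb, Ncapd2 and Foxm1. In 12 genes the value exceeded its own standard error. In 0 of the 50 genes were all Blebb libraries above all MS libraries (3.05% of all genes) or below them (0.683%), and the adjusted p-values ran from 0.897 to 0.997 (limma). Here the direction of the median rested on Blebb 2. The count above 0 ranged from 2 of 50 without Blebb 1 to 29 of 50 without Blebb 2, and was 21 without MS 1, 14 without MS 2 and 3 without MS 3 or Blebb 3. Without CTL 1 and Blebb 2 the median was 0.080 and 29 of 50 genes lay above 0. With MS 3 left out as well, the median was -0.13 and 11 of 50 genes lay above 0. In the fit without CTL 1 and Blebb 2, Cdc25b had a log2 fold change of 0.41 (SE 0.17, unadjusted p = 0.041, adjusted p = 1.00, limma) and Foxm1 of 0.39 (SE 0.16, unadjusted p = 0.038, adjusted p = 1.00, limma), and 0 genes passed the adjusted threshold. Of all 10109 genes tested, 66 were higher and 38 lower in Blebb at an unadjusted p under 0.05 in that fit (limma). That fit kept MS 3, and neither gene was under 0.05 with MS 3 left out as well.

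Blebb against CTL gave the smallest median difference. As labelled, these groups differ in the inhibitor only. If the Blebb cells were strained, as the study's text describes, straining differs too and the parts of each cannot be told apart. The median log2 fold change was -0.12, and 7 of 50 genes lay above 0 against 46% of all genes tested. The lowest values were -0.45 (SE 0.84, 95% interval -2.35 to 1.45) for Mki67 and -0.41 (SE 0.92, 95% interval -2.50 to 1.67) for Smc4, and the highest were that of Pttg1 and 0.070 (SE 0.17, 95% interval -0.31 to 0.45) for Bub3. None of the 50 genes exceeded its own standard error, and 0 had groups without overlap (0.93% of all genes with Blebb higher and 1.15% with Blebb lower). Without CTL 1 and Blebb 2, 11 of 50 genes lay above 0. The median rose above 0 without CTL 3 (0.12, 42 of 50 genes above 0) and without Blebb 2 (0.27, 48 of 50), while 1 of 50 lay above 0 without CTL 1, 2 without Blebb 1 or Blebb 3, and 25 without CTL 2. The 3 comparisons share libraries, so that MS 1 and CTL 1 enter more than 1 of them and their medians are not independent.

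**Figure D3:**
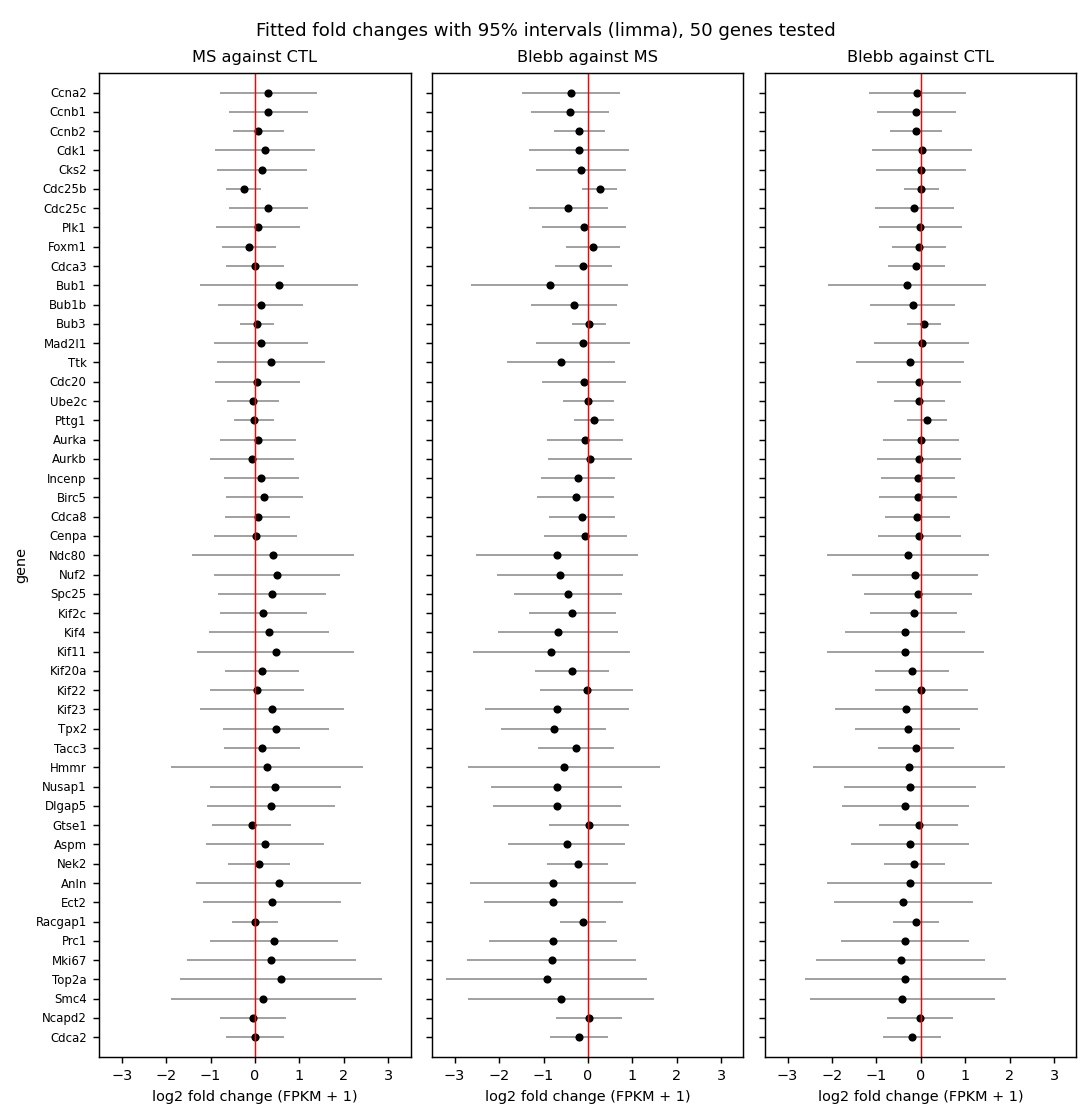
Fitted log2 fold changes (FPKM + 1 scale) of the 50 tested genes in MS against CTL, Blebb against MS and Blebb against CTL. Points are limma estimates and lines are 95% confidence intervals. All intervals include 0, and the widest belong to Top2a, Smc4 and Hmmr.

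The intervals limit what these libraries could show. The 95% interval of MS against CTL was narrow for Ube2c (-0.62 to 0.54) and Racgap1 (-0.53 to 0.51) and wide for Top2a (-1.69 to 2.85). A change of 2-fold (1 on the log2 scale) therefore lies inside the interval of Top2a, Bub1, Birc5, Kif22 and Tacc3 and outside those of Ube2c, Cdca3, Racgap1, Cenpa and Ncapd2.

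The spread of a gene over the libraries went with its base composition and its length. Between the highest and the lowest library the 50 genes spanned a median of 1.57 on the log2 scale, against 0.68 for all genes tested, and 49 of 50 exceeded that median. Across the 50 genes, the span had a Pearson r of -0.67 with the GC content of the longest transcript (Spearman rho -0.68) and of 0.42 with its log2 length (rho 0.42). Over the 9663 genes tested with these values, r was -0.38 and 0.13. These are correlations across genes, which are not independent replicates, and no test was made on them. The 4 genes with the largest spans, Top2a, Hmmr, Smc4 and Mki67, had transcripts of 40.2% to 46.6% GC and spanned 3.35 to 3.72. The 4 with the smallest, Bub3, Cdc25b, Pttg1 and Cdca3, had 46.0% to 54.2% GC and spanned 0.52 to 0.85. The levels of these genes differed too. Hmmr, Smc4 and Mki67 averaged 4.54, 3.51 and 2.82 FPKM, and Top2a 29.8 FPKM. Bub3 and Cdca3 averaged 94.6 and 89.3 FPKM, and Cdc25b and Pttg1 37.5 and 24.4 FPKM. The part of the level in the span was not tested. The 25 longer transcripts of the set spanned a median of 2.38 and the 25 shorter ones 1.35. Their median GC contents were 46.6% and 49.3%, so length and GC are not separate in this split. Mad2l1, with 40.1% GC and 7557 bases, spanned only 1.51.

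**Figure D4:**
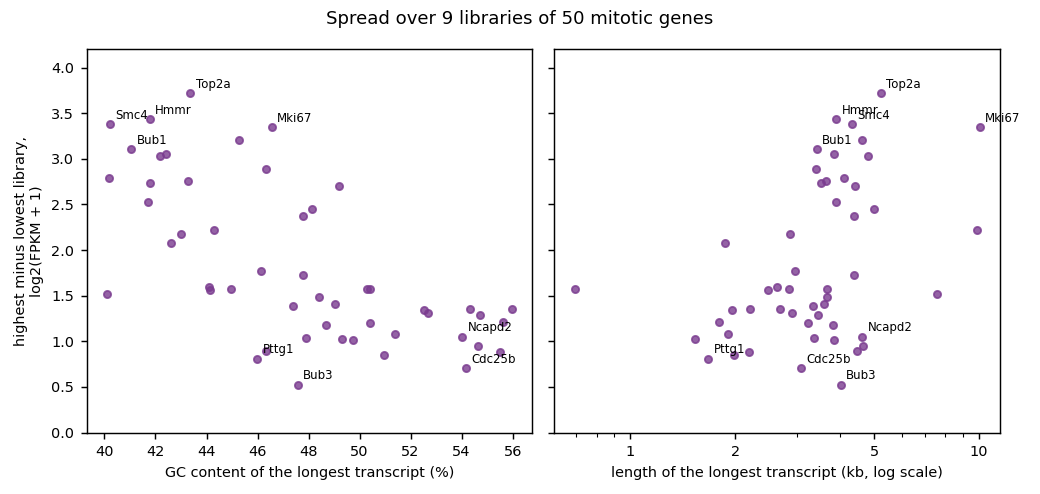
Span of each of the 50 tested genes over the 9 libraries, as highest minus lowest log2(FPKM + 1), against the GC content of the longest transcript (left) and its length in kb on a log scale (right). Each point is 1 gene. Span is larger for genes with less GC (r = -0.67) and for longer transcripts (r = 0.42).

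After each library's trend with GC content was removed, the median span of the 50 genes was 1.37, against 0.59 for all genes with GC content. With the GC and length trends removed it was 1.39, against 0.57. CTL 1 and Blebb 2 were the 2 lowest libraries in the same way, at medians of -0.69 and -0.82 relative to the gene means with the GC trend removed, against -0.81 and -0.93 as deposited. MS 1 was the highest library for 30 of the 50 tested genes as deposited and for 22 with the GC trend removed. Over all genes tested, the deviations of a library from the gene means had an r with GC content from -0.64 in MS 1 to 0.55 in Blebb 1. The part of base composition in the remaining differences was not tested. Without CTL 1 and Blebb 2, the median span of the 50 genes was 1.01 against 0.55 for all genes.

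Other genes of mitosis differed widely in their spread over the libraries. A further 103 mitotic genes were followed, of which 100 were tested and 0 passed the adjusted or unadjusted threshold in any comparison. Their median log2 fold changes were 0.14 in MS against CTL, -0.20 in Blebb against MS and -0.069 in Blebb against CTL. The 15 genes of the anaphase-promoting complex list spanned a median of 0.45. They are subunits of this ligase, which Cdc20 and Ube2c serve, and Fzr1, which is an activator like Cdc20. Anapc5 stayed between 232 and 293 FPKM, while Cdc27, of 39.9% GC, ran from 1.25 to 11.3 FPKM. The 14 cohesin genes tested, a list of the ring that holds sister chromatids together from S phase on and of its loaders, protectors and removers, spanned a median of 2.15, more than the mitotic genes, and had a median GC content of 42.1%. Smc3, the partner of Smc1a in the ring, ran from 0.209 FPKM in CTL 1 to 6.87 FPKM in MS 1.

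The S phase genes followed the same libraries. The 42 genes of DNA replication, such as Rrm2, a subunit of ribonucleotide reductase, and the helicase subunit Mcm4, had median deviations of -0.79 in CTL 1 and -0.81 in Blebb 2, against -0.81 and -0.93 for the mitotic genes. Rrm2 was at 39.4, 128 and 139 FPKM in CTL, 128, 107 and 69.5 FPKM in MS and 108, 40.7 and 134 FPKM in Blebb. In MS 1 the S phase genes stood at 0.33 and the mitotic genes at 0.57. For the S phase list, 0 of 42 passed the test in any comparison, with medians of 0.10, -0.12 and -0.0070 in the same order of comparisons.

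Of the 10 genes of the stress response list, 8 had their 3 highest libraries in CTL 1, MS 3 and Blebb 2, where most mitotic genes were lowest. They were Ddit3, Trib3, Chac1, Asns, Sesn2, Atf4, Ddit4 and Nupr1. The exceptions were Atf3, which was highest in MS 1 at 4.85 FPKM, and Cdkn1a, a CDK inhibitor, which was lowest in MS 3 at 148 FPKM and highest in Blebb 1 at 217 FPKM. The share of all genes tested with these same 3 highest libraries, CTL 1, MS 3 and Blebb 2, was not counted. The stress response list was chosen with earlier results of these data known, so the count is not shown to be particular to it. The list had median deviations of 0.80 in CTL 1, 0.49 in MS 3 and 0.82 in Blebb 2, and between -0.56 and -0.081 in the other 6 libraries. Ddit3, or CHOP, was at 137, 24.7 and 18.5 FPKM in CTL, 45.7, 25.8 and 99.1 FPKM in MS and 23.6, 131 and 22.4 FPKM in Blebb. Trib3, a CHOP target, was at 153, 21.2 and 19.4 FPKM in CTL, 36.4, 22.0 and 103 FPKM in MS and 41.7, 183 and 23.7 FPKM in Blebb. The pigment cell markers were mixed. Of the 7, Pmel, Dct and Tyr were highest in the same 3 libraries, with Pmel at 6318, 5106 and 5679 FPKM against 2079 to 3631 FPKM in the others. Mitf and Mlana had their 2 lowest libraries in CTL 1 and Blebb 2, with Mitf at 9.50 and 8.51 FPKM there against 14.2 to 36.2 FPKM in the others. The part of stress or of culture state in the levels of the mitotic genes was not tested.

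**Figure D5:**
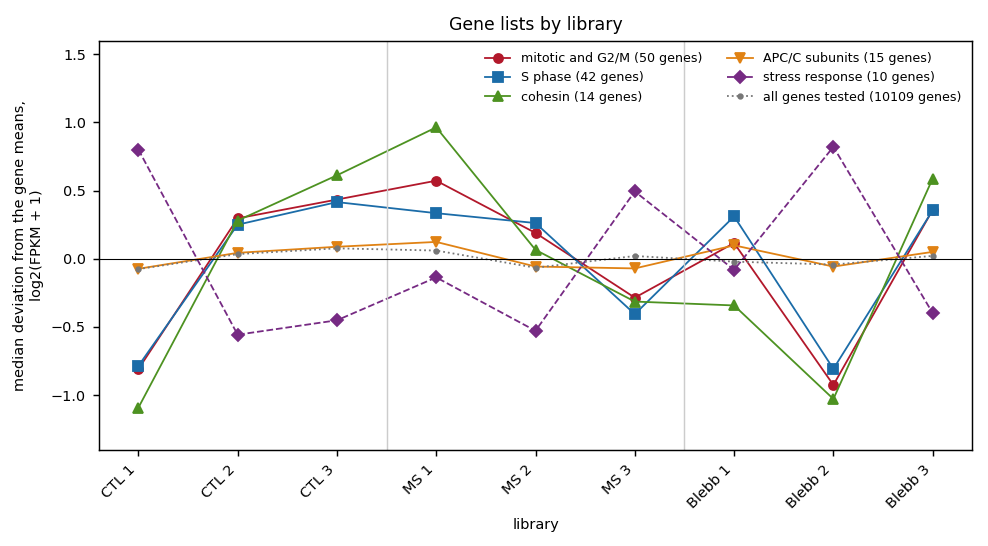
Median deviation of gene lists from the gene means, in log2(FPKM + 1), for each of 9 libraries. Lines are the 50 mitotic and G2/M genes, 42 S phase genes, 14 cohesin genes, 15 genes of the anaphase-promoting complex (shown as APC/C subunits), 10 stress response genes and all 10109 genes tested. The mitotic, S phase and cohesin lists are lowest in CTL 1 and Blebb 2, where the stress response list is highest.

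The genes whose pattern was most like that of the 50 mitotic genes were found by the Pearson r of each tested gene with the mean z score of the 50, over 9 libraries. The 10 highest were Hmgb2, Exo1, Pbk, Rad51ap1, Cenph, Ska3, Me2, G3bp1, Prim1 and Orc6, with r from 0.990 (Orc6) to 0.996 (Hmgb2). Over the 7 libraries without CTL 1 and Blebb 2 their r lay between 0.959 (Prim1) and 0.990 (Hmgb2). Cenph and Ska3 encode kinetochore proteins, and Prim1 and Orc6 act in DNA replication. The 5 lowest were Pnpla7, Plekhb2, Dcaf11, Trpm4 and C8g, with r from -0.993 (Pnpla7) to -0.989 (C8g).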

How the data were processed

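RNA was extracted with TRIzol, mRNA libraries were prepared with a SMARTER kit and sequenced on an Illumina platform. The authors deposited 1 FPKM value for each of 22972 gene names in each of 9 libraries. The column of CTL 1 carries a sample name as its header and was taken as FPKM too. The submitters' processing notes name the builds GRCm38 and mm10, and the aligner, the counting program, the strand setting and the filters are not given in the sources used here. With the depth unknown, no counting interval could be given.

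The 10109 genes that averaged 1 FPKM or more were fitted on the log2(FPKM + 1) scale over the 3 groups in limma 3.58.1 (R 4.3.3, with eBayes and a variance trend). Two-sided p-values were adjusted over all of them after Benjamini and Hochberg, with a threshold of 0.05. Genes under the minimum were compared by an exact permutation test of the means. The fit was run on data simulated with independent noise for each gene. Such data do not hold the shifts that the genes of a library share here, so they say nothing about these shifts. GC content and length came from the longest GENCODE M21 transcript, and all 53 genes had these values (95.6% of the genes tested). Positions were those of the whole genes in GENCODE M21. Promoters were those of RefSeq on GRCm38.p6.

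The 53 genes and all lists were chosen with earlier results of these data known. Values in every library are given for the gene with the highest mean of each role, for the spindle checkpoint and anaphase genes and for the 2 highest and 2 lowest fold changes of each comparison. Folds are given for the last and, in MS against CTL, for the first. Genes of other lists named with values were chosen after their values were seen. The alternatives were a minimum of 5 FPKM or none, a pseudocount of 0.1, median-of-ratios factors, a fit of only the groups compared, no variance trend, quantile normalization, leaving out each library, the replicate number as a block, CTL 1 and Blebb 2 left out, removal of the GC trend (loess, span 0.5), and the block with it. Removal of the GC and length trends, and leaving out CTL 1, MS 3 and Blebb 2, were added after seeing the data. Tables and plots were made with pandas 2.3.3 and matplotlib 3.10.9 in Python 3.11.15.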

Additional observations from a re-analysis of the deposited data

How the results depend on the processing

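The count of mitotic genes with an adjusted p under 0.05 (limma) was 0 in all 3 comparisons under every alternative run. The count with an unadjusted p under 0.05 was 0 except in Blebb against MS, where it was 2 without CTL 1 and Blebb 2 and ranged from 0 to 1 (Cdc25b, without Blebb 2) when 1 library was left out. At that threshold, 66 of all 10109 genes were higher and 38 lower in Blebb without CTL 1 and Blebb 2. When only Blebb 2 was left out, 43 were higher and 18 lower. With CTL 1, Blebb 2 and MS 3 all left out, the count of mitotic genes was 0. The median log2 fold change of the mitotic genes kept its sign under the changes of pseudocount, minimum, scaling and trend and with the GC trend removed. It turned to -0.23 in MS against CTL and to 0.080 in Blebb against MS without CTL 1 and Blebb 2. With MS 3 left out as well, it was 0.044 and -0.13, the signs with all libraries. Leaving out 1 library, it ranged from -0.23 (without CTL 1) to 0.45 (without MS 3) in MS against CTL, from -0.55 (without Blebb 3) to 0.080 (without Blebb 2) in Blebb against MS, and from -0.46 (without CTL 1) to 0.27 (without Blebb 2) in Blebb against CTL. It also changed sign without MS 1 in MS against CTL (-0.063) and without CTL 3 in Blebb against CTL (0.12). The median deviation of the mitotic genes in each library moved by less than the spread between replicates in all 36 values with another scaling or with trends removed. That spread was the SD within groups of these same deviations, which ran from -0.81 to 0.43 in CTL and from -0.93 to 0.36 in Blebb. The low libraries widen it, so a large move could stay under it and the count does not show that the values held.

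The replicate number as a block gave 0 genes with an adjusted p under 0.05 and 0 with an unadjusted p under 0.05 in each comparison. Same-numbered libraries did not deviate together, with correlations of their deviations from the group means between -0.78 and 0.84, of which 2 of 9 were over 0.1, so the numbers were not taken to pair the libraries.

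Single genes changed sign as follows, and the cause was not tested. In MS against CTL without CTL 1 and Blebb 2, the values were -0.097 for Birc5, -0.17 for Bub1, -0.34 for Cenpa, -0.41 for Kif22, -0.21 for Tacc3 and -0.43 for Top2a, and Pttg1 was at -0.028 in Blebb against MS. Without MS 3 as well, they were 0.033 for Cdca3, -0.082 for Kif22, -0.0079 for Tacc3 and -0.021 for Top2a, and -0.022 for Pttg1 in Blebb against MS. After removal of the GC trend, in the fits with and without the replicate block, Cdca3 was at 0.020, Cenpa at -0.0074, Ncapd2 at 0.024 and Ube2c at 0.038. With the length trend removed too, Ncapd2 was at 0.053 and Ube2c at 0.021, and quantile normalization gave 0.0066 for Cdca3. In MS against CTL, leaving out 1 library gave log2 fold changes of -0.10 to 0.45 for Birc5, -0.17 to 1.06 for Bub1, -0.21 to 0.24 for Cdca3, -0.34 to 0.40 for Cenpa, -0.36 to 0.011 for Foxm1, -0.41 to 0.37 for Kif22, -0.34 to 0.15 for Ncapd2, -0.21 to 0.16 for Racgap1, -0.21 to 0.41 for Tacc3, -0.43 to 1.19 for Top2a and -0.23 to 0.13 for Ube2c. In Blebb against CTL, leaving out 1 library gave log2 fold changes of -0.038 to 0.22 for Bub3, -1.15 to 0.013 for Mki67, -0.042 to 0.28 for Pttg1 and -1.24 to 0.12 for Smc4. In Blebb against MS, leaving out 1 library gave log2 fold changes of -0.028 to 0.30 for Pttg1.

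The depth is unknown, and 3 libraries in a group with a median standard error of 0.43 leave the differences of the most variable genes, such as Top2a, within wide intervals.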
